A study of Mus musculus with 7 samples.

Results

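In P19 embryonal carcinoma cells 849 regions carried a peak of CTCF and a peak of CTCFL (BORIS), its germline paralogue, while neither factor had a peak there in 3T3 fibroblasts. They were found by pooling the 4 deposited peak lists, merging peaks that shared at least 1 bp into 65700 union regions, and keeping those with a P19 CTCF peak, a P19 CTCFL peak and no 3T3 peak. The regions were chosen by the presence and absence of peaks in the lists, so their P19 scores and their lack of 3T3 peaks are a description and are not tested. They are called the P19-only shared regions below.

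The series mapped both factors by chromatin immunoprecipitation and sequencing in p19 cells (P19 below) and NIH3T3 cells (3T3 below), with the antibodies N2.2 for CTCF and S6 for CTCFL. All 4 samples used here carry pBI-EGFP-FLAG-mCtcfl, a tagged mouse Ctcfl construct, together with pTA-N, both stably integrated. Their labels describe growth with 2 µg/ml doxycycline and induction by 48 h without it. In the titles the P19 samples are named controls, yet the construct is listed for them. The labels therefore do not settle if CTCFL was induced in P19, and whether a line is 1 clone is not given in the sources used here. Libraries of 3T3 cells lacking the construct and of P19 input DNA were not analysed here, so neither CTCFL list was set against such cells.

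CTCF is a zinc-finger protein that binds DNA at insulators and at the anchors of chromatin loops, where it stops the cohesin ring. CTCFL shares the zinc-finger domain of CTCF but has different ends, and is normally made in the male germ line. P19 cells are a mouse teratocarcinoma line with stem cell properties, and NIH3T3 is a fibroblast line from mouse embryos.

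With 1 library per group there are no replicates, and differences are given without p-values. Intervals of shares and medians are exact 95% ones (binomial for shares, order statistics for medians). Intervals of differences between shares are approximate. They join the distances from each compared share to its exact limits as the root of their summed squares, and treat the sets as independent. All intervals cover counting error only. The lists held 32277 P19 CTCF, 5866 P19 CTCFL, 45653 3T3 CTCF and 16764 3T3 CTCFL peaks. The read depth of the libraries is unknown. The score is the authors', read as 10 times the negative log10 of a p-value, and it is used only within a list. Since every list starts at a score of about 50, a region without a 3T3 peak is one with no enrichment above that limit. Weaker 3T3 binding is outside what the lists show.

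Regions with both factors in P19 lacked a 3T3 peak less often than regions with a single factor, by 24.1 points (22.7 to 25.5) against CTCF alone and by 27.9 points (25.2 to 30.5) against CTCFL alone. Of 3952 P19 regions with both factors, the 849 without a 3T3 peak were 21.5% (20.2 to 22.8). Among P19 regions with CTCF and no CTCFL 12880 of 28252 lacked one, 45.6% (45.0 to 46.2). Among those with CTCFL and no CTCF 920 of 1864 did, 49.4% (47.1 to 51.7). Over all P19 regions the share was 43.0%. The both-factor share was 50.9% (48.4 to 53.3) with lists of equal length and 13.5% (11.6 to 15.7) with P19 scores of at least 100. The single-factor shares were not recounted under these settings, so the differences above hold for the full lists only. The 3103 both-factor regions that did have a 3T3 peak are the main comparison below: 1353 had both factors in 3T3, 1716 had CTCF and 34 had CTCFL.

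The share of both-factor regions without a 3T3 peak was lower where the P19 CTCF peak scored higher. Among 10 groups of nearly equal size, it was 48.0% (39.7 to 56.3) in the group of lowest CTCF score and 8.17% (6.61 to 9.95) in the highest. Regions with CTCF and no CTCFL went from 71.0% (69.4 to 72.6) to 14.2% (12.7 to 15.7) over the same groups, and were above the both-factor regions in all 10. The intervals of both kinds of region were apart in every group. Ordered by CTCFL score, the both-factor share moved less, from 23.6% (19.04 to 28.8) in the lowest group to 27.0% (22.6 to 31.9) in group 4 and 13.4% (10.6 to 16.6) in the highest. CTCFL peaks without CTCF went from 66.9% (60.9 to 72.5) to 21.7% (12.1 to 34.2). In the highest CTCFL group the intervals of regions with and without CTCF overlapped.

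**Figure D1:**
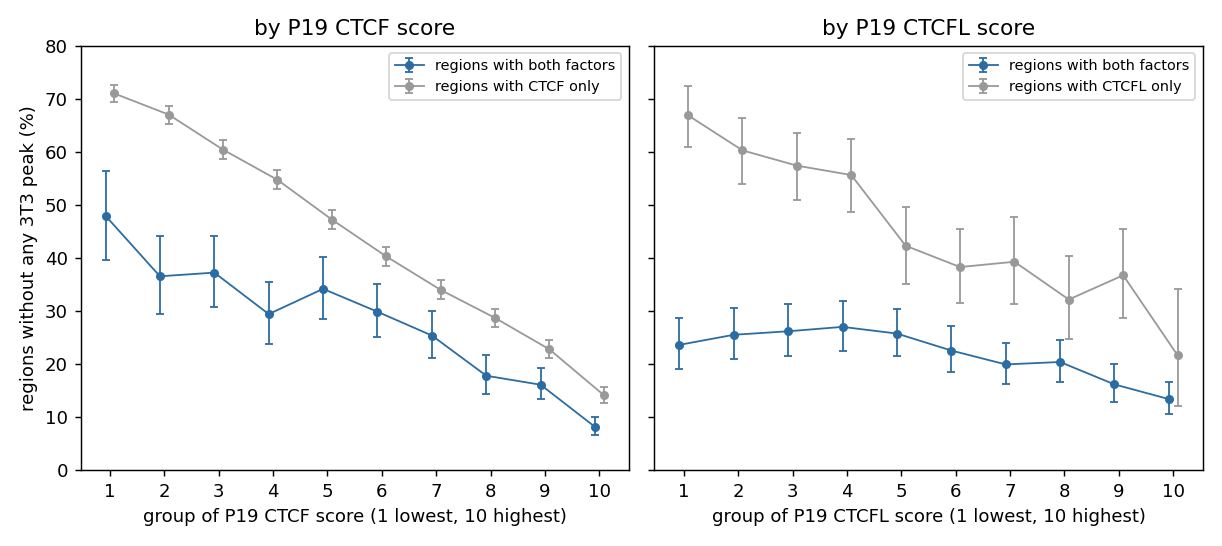
Share of P19 regions without any 3T3 peak (y axis, %) in 10 groups of P19 CTCF score (left) or P19 CTCFL score (right), for regions with both factors and with a single factor. Bars are exact 95% intervals, and the both-factor share on the left runs from 48.0% in the lowest group to 8.17% in the highest.

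The P19-only shared regions were spread more evenly over the 10 groups of CTCF score than both-factor regions as a whole. Of all both-factor regions, 148 were in the lowest group and 1090 in the highest. The P19-only shared regions numbered 71 in the lowest and 89 in the highest. Each group held 64 to 104 of them, which was 1.99 to 3.23% of the P19 CTCF regions in the group. The groups of CTCFL score held 70 to 101, or 12.0 to 17.4% of the P19 CTCFL regions.

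At the P19-only shared regions both factors had scores near the middle of their lists. The P19 CTCF score had a median of 128 (121 to 135), with a range of 50.2 to 762, and the list median was 117. For P19 CTCFL the median was 73.7 (71.9 to 75.9), with a range of 50.01 to 444, and the list median was 75.1. Both-factor regions with a 3T3 peak stood higher, at a median of 215 (208 to 222) for CTCF and 83.7 (81.9 to 86.0) for CTCFL. Where 3T3 had CTCF but no CTCFL, the P19 CTCFL median was 74.5 (72.9 to 76.6), and its interval overlapped that of the P19-only shared regions. Where 3T3 had both factors it was 101 (96.3 to 105). P19 CTCF peaks alone had a median score of 85.8 (84.9 to 87.0) and P19 CTCFL peaks alone 61.4 (60.2 to 62.5). CTCF regions of both lines without CTCFL had a median P19 CTCF score of 140 (139 to 143), above that of the P19-only shared regions.

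Strength for the 2 factors went together only weakly at these regions. Both scores were above their list medians at 241 regions and both at or below at 215. CTCF alone was above at 229 and CTCFL alone at 164. Spearman's rho between the scores was 0.107 over the 849 regions and 0.147 over the 3103 regions with a 3T3 peak, each a description across regions of the same pair of libraries. The 70 regions in the highest 10% of the CTCFL list had a median CTCF score of 148 (119 to 189), against 268 (252 to 292) at the 453 such regions with a 3T3 peak. The 89 regions in the highest 10% of the CTCF list had a median CTCFL score of 81.2 (73.3 to 94.6), against 93.9 (90.6 to 99.1) at 1001 regions with a 3T3 peak. A score under 60, close to the caller's limit, was found for either factor at 270 of the 849 regions, 31.8% (28.7 to 35.0), and at 22.1% (20.6 to 23.6) of the regions with a 3T3 peak.

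**Figure D2:**
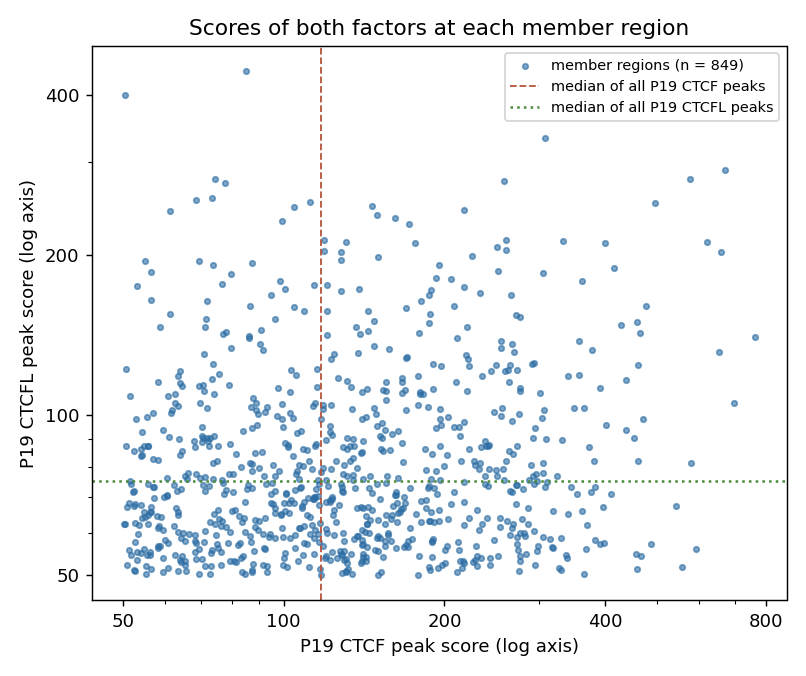
P19 CTCF score (x axis) and P19 CTCFL score (y axis), both on log axes, of each of the 849 regions. The dashed and dotted lines are the medians of all P19 CTCF and all P19 CTCFL peaks, and 241 regions lie above both.

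Regions are given by their mm9 positions. The region with the best summed rank, chr16:35155543-35157130, scored 669 for CTCF and 289 for CTCFL. It had a 3T3 CTCFL peak 125 bp away (score 69.7) and a 3T3 CTCF peak 182 bp away, so both lines had peaks there without sharing a base. The next, chr12:58642808-58643870, scored 576 and 279, with the nearest 3T3 peak 2665 bp off. At chr11:3213768-3214616 the scores were 495 and 251, and the nearest 3T3 peak, of CTCF, lay 17163 bp away. This site combined high scores for both factors with the greatest distance to a 3T3 peak among the 8 best ranked.

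Of the other 5 best ranked regions, chr19:10462894-10464500 scored 620 and 212 and lay 1987 bp from a strong 3T3 CTCF peak (score 1144). At chr16:91935112-91935846 the scores were 660 and 203, with a weak 3T3 CTCF peak (63.5) at 3161 bp. Chr7:151267087-151267976 had scores of 399 and 211 and a 3T3 CTCF peak of score 202 at 2162 bp. Strong P19 sites of both factors could thus lie within a few kb of strong as well as weak 3T3 CTCF peaks. Chr5:125257419-125258373 scored 414 and 189, with a 3T3 peak at 1080 bp. Chr2:10295650-10296831 scored 308 and 332 and, like the other best ranked regions, was in the highest 10% of both lists. Its nearest 3T3 peak, of CTCF with a score of 85.8, lay 7319 bp away, and on the other side the next was 409998 bp away.

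The highest CTCF score, 762, was at chr11:66914947-66915886, with a CTCFL score of 140. The next, chr2:25083585-25084824, scored 696 for CTCF and 105 for CTCFL. The 2 strongest CTCFL sites were weak for CTCF. Chr11:82201946-82202747 had a CTCFL score of 444 and a CTCF score of 84.9, which was above 31.6% of the CTCF list. At chr11:97490232-97491212 the CTCFL score of 401 stood beside a CTCF score of 50.6, above only 0.774% of that list. The CTCF peak there was 420 bp wide and the CTCFL peak 981 bp. A slightly stricter limit would have made this a CTCFL site without CTCF. The lowest summed scores were at chr17:88506902-88507660 (50.9 for CTCF and 52.3 for CTCFL) and chr8:90838691-90839613 (52.5 and 51.1), so these regions entered with both peaks next to the limit.

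The 2 peaks of a P19-only shared region lay largely on top of each other, as in both-factor regions with a 3T3 peak. Nearly all, 842 of 849, held 1 peak of each factor. The centres of the CTCF and CTCFL peaks lay a median of 68.5 bp apart (62.0 to 73.0), against 71.5 bp (68.5 to 74.5) in both-factor regions with a 3T3 peak, and within 100 bp at 69.0% (65.8 to 72.1) against 64.2% (62.5 to 65.9), a difference of 4.83 points (1.18 to 8.37). Centres over 200 bp apart were found at 56 regions, 6.60% (5.02 to 8.48), against 10.2% (9.14 to 11.3). The rule itself enters these differences. Without a 3T3 peak the P19 peaks of a region are joined only by their own overlap, which was at least 8 bp. In the comparison a 3T3 peak can also join P19 peaks that lie apart, and the part of this was not tested. The CTCFL peak lay inside the CTCF peak at 291 regions, 34.3% (31.1 to 37.6), against 39.1% (37.4 to 40.9). Median widths were 648 bp (634 to 660) for CTCF and 558 bp (544 to 575) for CTCFL. In regions with a 3T3 peak they were 724 bp (716 to 732) and 610 bp (601 to 617). Width and score went together across the 849 regions (Spearman's rho 0.363 for CTCF and 0.254 for CTCFL). Wide peaks touch other peaks more easily, and the part of width in the result was not tested.

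The nearest 3T3 peak of either factor lay a median of 5.7 kb from a P19-only shared region, at 5705 bp (4870 to 6769), and within 10 kb at 534 of 849, 62.9% (59.6 to 66.2). Over all P19 regions without a 3T3 peak that share was 47.0% (46.2 to 47.8). With every list cut to the length of the shortest, which leaves 5866 peaks in each and chooses largely other regions, 23.2% (20.4 to 26.2) had a 3T3 peak within 10 kb. Regions with a single factor were not recounted with the cut lists. In the full lists the share was 45.2% (44.3 to 46.0) for CTCF in P19 alone and 57.2% (53.9 to 60.4) for CTCFL in P19 alone. The difference from CTCF alone was 17.7 points (14.2 to 21.1), and 16.4 points (12.8 to 19.8) when averaged over 4 groups of CTCF score. In each of those groups the share of P19-only shared regions was 61.0 to 66.0%, and that of CTCF alone 43.6 to 50.7%. Distance to a 3T3 peak therefore hardly moved with the CTCF score at the P19-only shared regions.

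**Figure D3:**
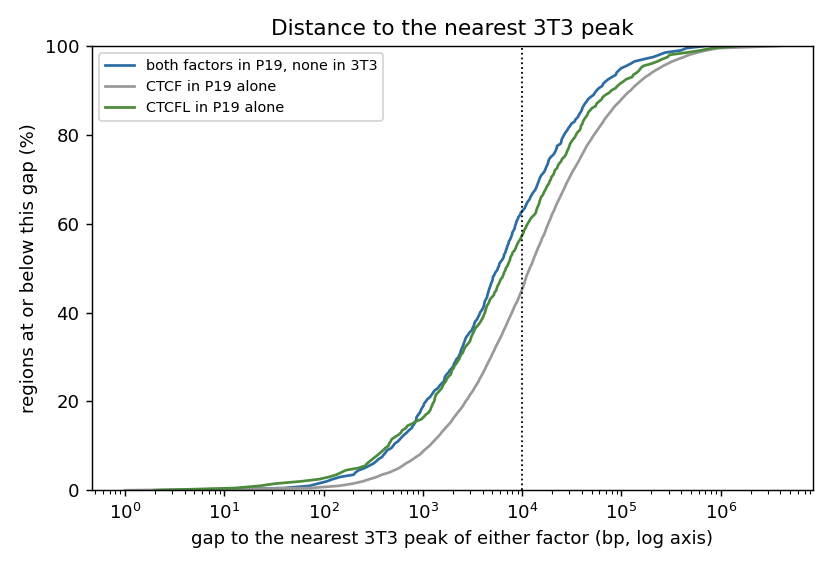
Cumulative share of regions (y axis, %) by gap to the nearest 3T3 peak (x axis, bp, log axis) for 3 kinds of P19 region without a 3T3 peak. The dotted line marks 10 kb, where the curves stand at 62.9% for both factors, 57.2% for CTCFL alone and 45.2% for CTCF alone.

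The nearest 3T3 peak was one of CTCF for 711 regions, with a median score of 108 (101 to 115) against the list's 104. For the other 138 it was one of CTCFL, with a median of 73.0 (69.1 to 80.8) against the list's 83.7. A 3T3 CTCF peak lay a median of 6900 bp away (5794 to 7972) and a 3T3 CTCFL peak 26120 bp (22493 to 29512). The 3T3 CTCF list is the longer, with 45653 peaks against 16764. For CTCF in P19 alone the medians were 13435 and 47351 bp in the same order. How often CTCF was the nearest was not counted for other P19 regions. At 160 regions, 18.8% (16.3 to 21.6), a 3T3 peak was within 1 kb, as it was for 8.69% (8.21 to 9.19) of CTCF in P19 alone and 16.2% (13.9 to 18.7) of CTCFL in P19 alone. Stretches free of 3T3 peaks around the regions had a median length of 40.7 kb (36.1 to 46.9), and 39 of 847 with a 3T3 peak on each side were of at least 500 kb.

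On either side of the overlap rule, 4 regions lay within 20 bp of a 3T3 peak without touching it, and 4 both-factor regions were left out for an overlap of at most 20 bp. Those inside had CTCF scores of 63.9 to 168 and CTCFL scores of 56.4 to 115. Those outside had 50.7 to 342 and 50.6 to 123. The closest inside were chr11:66340357-66341347 (3 bp from a 3T3 CTCF peak of score 106), chr11:97435086-97435901 (7 bp from a 3T3 CTCFL peak of score 51.8), chr4:129218919-129219516 (9 bp from a 3T3 CTCF peak of score 108) and chr1:74996598-74997123 (10 bp from a 3T3 CTCF peak of score 62.8). By score, 86 of the both-factor regions left out had a best 3T3 score under 60. At 3066 of the 3103 left out, 3T3 peaks touched the P19 peaks of both factors.

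Other P19-only shared regions lay deep in stretches without 3T3 peaks. At chr4:39256973-39257603 (CTCF 276, CTCFL 101) the nearest 3T3 peak was 704061 bp away, and the stretch free of 3T3 peaks measured 2596 kb. At chr4:20704920-20705579 (92.3 and 101) it was 655003 bp away, and at chr6:10136258-10136589 (108 and 66.8) 589889 bp. In the last of these the peak centres of the factors were 0.5 bp apart. Chr16:27977127-27977535 scored 187 and 169, with 469305 bp to the nearest 3T3 peak. These sites were not weak for the group, since 2 of the 4 had CTCF scores above the group's median and 3 of the 4 CTCFL scores above it.

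The surroundings of the P19-only shared regions held fewer 3T3 peaks than those of both-factor regions with a 3T3 peak. Within 50 kb, leaving out the region itself, there were on average 4.62 3T3 CTCF peaks and 1.77 3T3 CTCFL peaks, against 6.35 and 2.60. P19 CTCF peaks numbered 2.94 against 3.49, and P19 CTCFL peaks 0.760 against 0.925. CTCF in P19 alone had the sparsest surroundings, with 3.42 3T3 CTCF and 2.32 P19 CTCF peaks. No other P19 CTCF peak was within 50 kb at 105 of the 849 regions, 12.4%, against 8.44% and 22.3% in the same order. CTCF regions of both lines without CTCFL, which also have a 3T3 peak, had 4.50 3T3 CTCF and 1.66 3T3 CTCFL peaks around them. For CTCFL in P19 alone the means were 4.55 and 1.80. The 3T3 peak numbers around the P19-only shared regions were thus close to those of both these kinds.

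Neighbouring CTCF sites mostly did have 3T3 peaks. Of 2320 other P19 CTCF regions within 50 kb of a P19-only shared region, 889 had no 3T3 peak, 38.3% (36.3 to 40.3), against 42.6% of all P19 CTCF regions. Around both-factor regions with a 3T3 peak the share was 35.4% (34.3 to 36.4), from 2794 of 7898. The difference was 2.94 points (0.691 to 5.22), and 2.79 points (0.673 to 4.94) when averaged over 4 groups of the neighbours' CTCF score. Around CTCF regions of both lines without CTCFL, which also have a 3T3 peak, the share was 38.2% (37.5 to 38.9), and around CTCF in P19 alone it was 40.1% (39.4 to 40.8), so the share around the P19-only shared regions did not stand apart from these. Within 10 kb the shares were 35.2% (31.3 to 39.2) and 32.0% (30.1 to 34.0), with overlapping intervals. Some neighbours were counted around both kinds of region, which the intervals of these differences do not take into account. The neighbour's own CTCF score went with far larger differences, from 63.9% (59.6 to 68.1) without a 3T3 peak in the lowest of 4 score groups to 18.3% (15.5 to 21.3) in the highest.

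**Figure D4:**
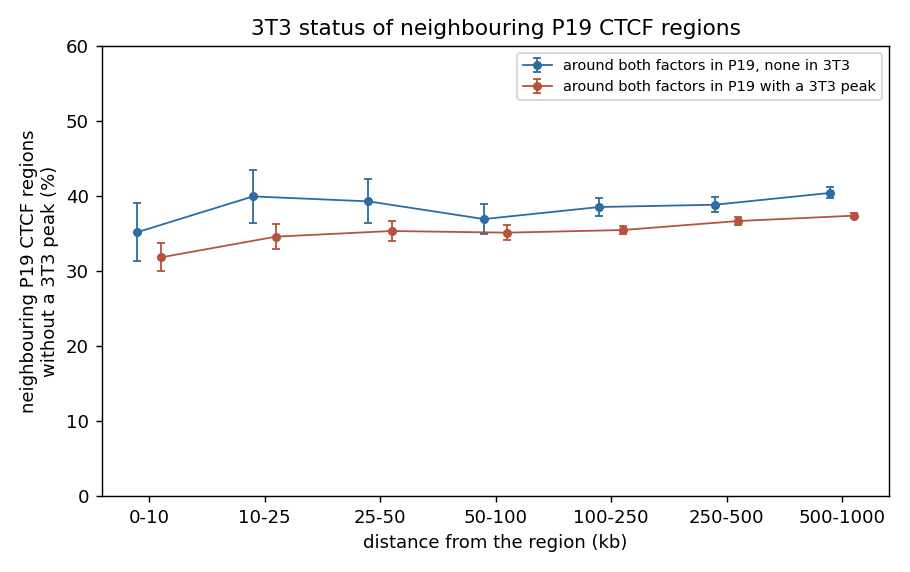
Share of neighbouring P19 CTCF regions without a 3T3 peak (y axis, %) by distance (x axis, kb), around the 849 regions and around the 3103 both-factor regions with a 3T3 peak. Bars are exact 95% intervals over pairs of regions, and the share around the 849 stays between 35.2% and 40.4%. A neighbour can enter several pairs and both curves, so the bars are too narrow.

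Chromosome 11 held the most P19-only shared regions, 111 of 849. They were 4.28% (3.53 to 5.13) of its P19 CTCF regions, against 2.49% (2.32 to 2.68) on the other chromosomes, a difference of 1.79 points (1.02 to 2.65). The share of both-factor regions without a 3T3 peak was 23.1% (19.4 to 27.2) on chromosome 11 and 21.3% (19.9 to 22.7) elsewhere, a difference of 1.87 points (-2.09 to 6.12). Chromosome 11 has the highest count of the 20, and the intervals of its differences are not adjusted for that choice. The both-factor regions themselves were 18.5% of the CTCF regions on chromosome 11 and 11.7% elsewhere. Over the 20 chromosomes the share of both-factor regions without a 3T3 peak ran from 12.9% (7.03 to 21.0) on chromosome 18 to 31.8% (22.3 to 42.6) on chromosome 14. Chromosomes 15 and 19 were low as well, at 13.1% (8.76 to 18.7) and 13.7% (8.99 to 19.7), and chromosome 9 was high at 27.4% (21.9 to 33.6). The intervals of these 5 chromosomes did not hold the value of the whole set, 21.5%, and they are not adjusted for 20 comparisons. For CTCF without CTCFL chromosome 19 was the lowest, at 37.2% (33.8 to 40.6), while chromosome X was the highest at 57.6% (53.8 to 61.3). X carried 10 P19-only shared regions among 43 with both factors, 23.3% (11.8 to 38.6).

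**Figure D5:**
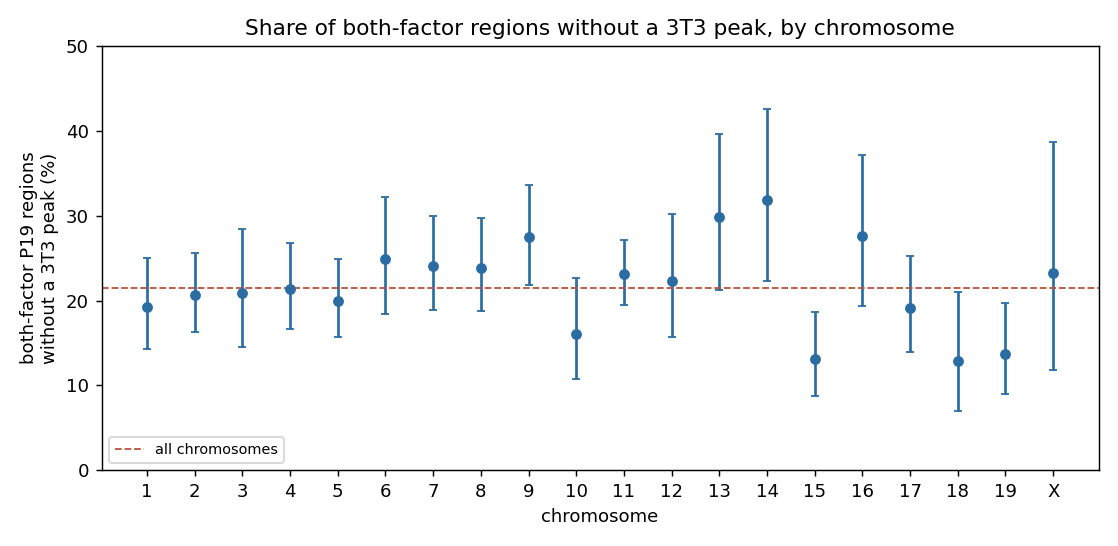
Share of both-factor P19 regions without a 3T3 peak (y axis, %) on each chromosome (x axis). Bars are exact 95% intervals and the dashed line is the 21.5% of all chromosomes, which lies outside the bars of chromosomes 9, 14, 15, 18 and 19.

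Most P19-only shared regions stood apart from each other. With a gap of at most 100 kb as the limit, 699 had no other member nearby, and 150, or 17.7% (15.2 to 20.4), fell into 70 groups. Such a share was not counted for other P19 regions, so it cannot show if the members were grouped more or less than those. The fullest group spanned 163 kb at chr11:69700575-69863918 and held 5. Its members lay at chr11:69700575-69701411 (CTCF 135, CTCFL 90.01), chr11:69762116-69763041 (461 and 124), chr11:69764201-69765201 (186 and 103), chr11:69828073-69829090 (98.6 and 179) and chr11:69863236-69863918 (106 and 92.5). All 5 scored above the list median for CTCFL. The same stretch held 7 regions with both factors, 11 with P19 CTCF, 18 with 3T3 CTCF and 9 with 3T3 CTCFL. The group was therefore not a stretch without 3T3 binding.

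Groups of 4 tied for the next place. One, chr11:101774759-101866242, had members at chr11:101774759-101775360 (CTCF 129, CTCFL 54.6), chr11:101777775-101778557 (154 and 54.1), chr11:101785523-101786317 (157 and 59.5) and chr11:101865342-101866242 (364 and 50.2). All 4 had CTCFL scores under 60 with CTCF above its list median, and they were all the both-factor regions of the stretch. The other, chr19:10462894-10577804, began with the best ranked chromosome 19 site above, followed by chr19:10469511-10470392 (160 and 92.1), chr19:10477060-10477955 (377 and 133) and chr19:10576836-10577804 (578 and 81.2). These 4 were among 5 both-factor regions of the stretch and all scored above both list medians. The stretch also held 10 regions with 3T3 CTCF and 9 with 3T3 CTCFL.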

How the data were processed

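Chromatin immunoprecipitation libraries of 4 samples were used, 1 per group, out of 7. Per the labels' protocols, 10 ng of precipitated DNA went into each library. Per the submitters' processing notes the tools were Bowtie, SAMtools, FastQC and MACS 1.4, listed without roles beside the builds mm9 and hg19. For the control library, read filters and pooling, nothing was given in the sources used here. Each list deposited by the authors gives positions and a score per peak. Positions were counted from 1 and taken as mm9. The gene table at hand was of another build, GRCm38.p6, with peaks past its last gene on 10 of 20 chromosomes, so no peak was assigned to a gene or sequence.

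Peaks were merged in Python 3.11.15 with SciPy 1.17.1, pandas 2.3.3 and numpy 2.4.6, plotted with matplotlib 3.10.9, and checked against bedtools 2.31.1 and on simulated data. A region takes the best score per list. Gaps are bases between edges. Named regions are the 8 best summed ranks, the 4 highest scores per factor, the 4 closest to and farthest from a 3T3 peak, the 2 lowest sums, and the fullest groups, where a tie gave 3 groups. Members and rules were chosen with earlier results of these data known.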

Additional observations from a re-analysis of the deposited data

How the results depend on the processing

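No paired analysis was possible because there was only 1 library in each group, and for the same reason no replicate could be left out. Of 40 values under the 8 listed alternatives, 20 lay inside the interval of the main value (counts within 1.5 times) and 20 moved. Autosomes only, and sharing at least 50% of the shorter peak, moved none. With scores of at least 100 in all 4 lists there were 245 regions (median scores 197 for CTCF and 135 for CTCFL, 46.5% with a 3T3 peak within 10 kb), of which 150 were among the 849. With the limit in the P19 lists there were 150 regions, 13.5% of those with both factors, with medians of 190 and 132. Lists of equal length gave 836 regions, but only 177 were among the 849. They were 50.9% of both-factor regions, with medians of 309 and 79.0 and 23.2% within 10 kb. Peak centres within 200 bp gave a share of 26.4%, a CTCFL median of 75.9 and 68.5% within 10 kb, and peaks resized to 200 bp gave 25.6%, 76.0 and 68.1%. With no 3T3 peak within 1000 bp the share was 17.4%, and 54.3% lay within 10 kb. By construction, limits on score or list length take out weak peaks and the distance limit takes out near ones; the cause of the other shifts was not tested. The averages over groups of CTCF score were chosen after seeing the data, and both lay within the interval of the plain difference. Read depth is unknown, which limits what the absence of a 3T3 peak can show.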

Other observations

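Both scores reached the highest 10% of their lists at 12 of the 849 regions, 1.41% (0.732 to 2.46), against 206 of 3103 both-factor regions with a 3T3 peak, 6.64% (5.79 to 7.57). Besides the 8 best ranked, they were chr3:30754371-30754947 (CTCF 333, CTCFL 213), chr5:117006341-117007229 (305 and 185), chr11:103992732-103993722 (476 and 161) and chr19:3586300-3587422 (362 and 179), named after their values were seen. Of these 4, the chromosome 3, chromosome 11 and chromosome 19 sites had a 3T3 peak 108 bp, 136 bp and 372 bp away, and the chromosome 5 site 14939 bp.

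Groups of 3 lay on chromosomes 3, 7 and 11. The chromosome 3 group, chr3:130276080-130393217, held all 3 both-factor regions of its 117 kb, with 2 regions of 3T3 CTCF and 0 of 3T3 CTCFL. The chromosome 7 group, chr7:116241850-116362150, held 3 of 4 both-factor regions, with 4 regions of 3T3 CTCF and 0 of 3T3 CTCFL. In the chromosome 11 group, chr11:120303846-120439306, there were 13 regions of 3T3 CTCF and 5 of 3T3 CTCFL around the 3 members. By fixed windows of 1 Mb, 615 held at least 1 of the 849 regions, and 3 held 6, at chr11:69000001-70000000, chr11:101000001-102000000 and chr19:10000001-11000000. In the same order these windows held 14, 12 and 18 both-factor regions and 53, 47 and 47 P19 CTCF regions. Regions with 3T3 CTCF numbered 104, 76 and 77. These groups and windows were singled out after their values were seen.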
